A study of Mus musculus with 2 samples.

Results

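Skeletal muscle keeps a reserve of stem cells, the satellite cells, that lie between each muscle fibre and its basement membrane. The 10 genes described here are genes of these cells and of their resting state: the transcription factors Pax7 and Pax3, the surface proteins Cdh15, Vcam1, Sdc4 and Calcr, the secreted protein Chrdl2, and Notch1, Heyl and Hey1 of the Notch pathway. They were chosen by symbol, as genes of muscle stem cells and their resting state, with earlier results of these data known, and all 10 were found among the 55536 genes of the deposited gene tables, each under a single identifier. The data are total RNA sequencing of whole gastrocnemius, a calf muscle, from male B6CASTF1/J mice aged 2 months, which are hybrids of the B6 laboratory strain and the wild-derived CAST strain. There was 1 group of 2 libraries, prepared with ERCC spike-in RNAs from 300 ng of RNA each. They are named replicate 1 and replicate 2, as in the labels, which list separate tissue samples but 1 donor entry, so that the spread between them may be partly technical. No gene was deleted and no agent was given, and the only comparison that the labels allow is between the libraries.

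In resting muscle, satellite cells stay out of the cell cycle and carry Pax7, which is needed to maintain them. Signals from the fibre hold them there. Notch ligands on a neighbouring cell bind a Notch receptor, proteases release the receptor's inner part, and this part joins Rbpj in the nucleus and switches on genes of the Hes and Hey families, repressors that hold back differentiation. The calcitonin receptor Calcr and the adhesion proteins Cdh15 and Vcam1 are further surface markers of the resting cells in mouse. Several of these genes are not restricted to satellite cells: Notch1, Hey1, Heyl, Vcam1 and Sdc4 are also known from blood vessels. In whole muscle, fewer cells of a type and less RNA per cell cannot be told apart.

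The libraries held 42724520 and 42280091 reads on genes in replicates 1 and 2. Each came with a gene and a transcript table of estimated counts and of TPM, a relative level per transcript length (the first tables), and with a second, separately made transcript table that was summed to genes (the second tables). The tissue label fitted the muscle fibre markers, all 10 of which were above 1 TPM in both libraries, with summed levels of 88129 and 73370 TPM in replicates 1 and 2. The ERCC RNAs took 0.468% and 0.442% of the counts. Summed over the 10 satellite cell genes, the levels were 33.9 and 35.0 TPM in replicates 1 and 2. Sdc4, which is also known from blood vessels, gave 15.6 and 17.7 TPM of these sums, and Cdh15 gave 8.92 and 7.88 TPM. The sums are therefore not a measure of satellite cells alone.

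The 10 genes spanned a wide range of levels. Sdc4 and Cdh15 stood highest, Notch1, Heyl and Hey1 were between 1 and 4 TPM, Pax7, Chrdl2 and Vcam1 were just under 1 TPM, and Calcr and Pax3 were lowest. In the first tables, 5 of the 10 reached 1 TPM in both libraries, and 8 did so in the second tables. In the order of mean levels, the library values of Heyl and Notch1 overlapped, as did those of Vcam1 and Pax7 and those of Pax7 and Chrdl2. All other neighbours in that order were separated by more than the spread between the libraries. In the second tables the order was the same, and Heyl and Notch1 no longer overlapped. With the posterior mean TPM of the first tables, Notch1, at 4.88 and 4.61 TPM, stood above Heyl, at 2.86 and 3.40 TPM.

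**Figure D1:**
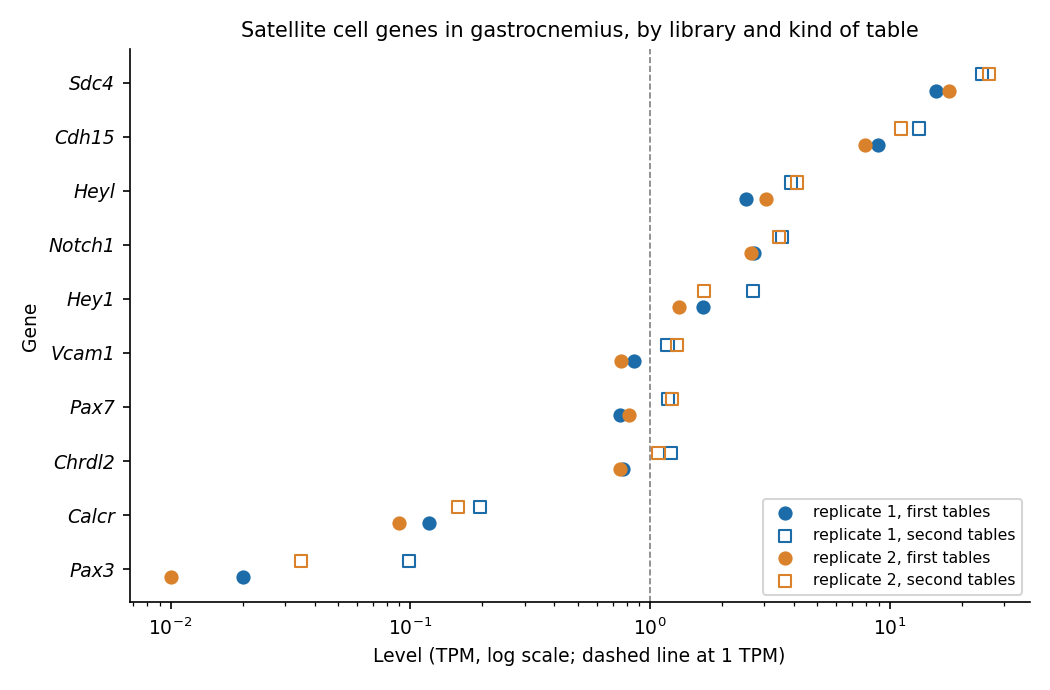
Level of each of the 10 genes in TPM on a log axis, for replicate 1 (blue) and replicate 2 (orange), in the first tables (filled circles) and the second tables (open squares). Sdc4 and Cdh15 sit highest, Calcr and Pax3 lowest, and the second tables put Pax7, Chrdl2 and Vcam1 to the right of the dashed line at 1 TPM.

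The second tables gave higher TPM for every one of the 10 genes in both libraries. For Sdc4, for example, they gave 24.3 and 25.96 TPM in replicates 1 and 2, against 15.6 and 17.7 TPM in the first tables. Over 11691 protein-coding genes with at least 20 reads in each library, the median of the second table's TPM over that of the first was 1.501 in replicate 1 and 1.43 in replicate 2. For Pax3, with 1 or 2 reads in the first tables, the same ratio was 4.94 and 3.52. Protein-coding genes held 47.2% and 46.2% of TPM in the first tables.

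Pax7, the transcription factor that defines satellite cells, lies on chromosome 4 (mm10, chr4:139737062-139833528, minus strand). It had 115 reads in replicate 1 and 142 in replicate 2, or 0.75 and 0.82 TPM. The mean level was 0.785 ± 0.0495 TPM (SD, n = 2), which placed Pax7 at the 33.7th percentile of the 15870 protein-coding genes above 0 TPM. Replicate 2 held more reads, with a log2 ratio of 0.35 and a 95% counting interval of -0.012 to 0.72, and the difference did not pass the test (adjusted p = 0.154, exact binomial test with Benjamini-Hochberg adjustment over all genes).

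Pax7 has 2 annotated transcripts, and both had reads. Their coding parts differ where exon 4 begins: Pax7-202 carries 6 more bases, or 2 codons. The sequences are shown because they are the coding difference between the transcripts that the tables tell apart. Each runs from exon 3 (chr4:139829497-139829520) into exon 4, which starts at 139828710 in Pax7-202 and at 139828704 in Pax7-201 on the minus strand of mm10, and the capitals mark the additional bases.
Pax7-202: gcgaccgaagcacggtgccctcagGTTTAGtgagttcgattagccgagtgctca
Pax7-201: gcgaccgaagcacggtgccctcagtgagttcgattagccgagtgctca

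Pax7-201, the longer transcript with 5854 bases against 1725, took most of the level of the gene. Its share of the gene's TPM was 69.3% in replicate 1 and 82.9% in replicate 2 of the first tables, and 62.0% and 77.1% in the second. Pax7-201 thus led in both libraries and both kinds of table, with the lower share in replicate 1 in each kind of table. In the first tables Pax7-202 had 13.1 reads in replicate 1 and 7.93 in replicate 2, with posterior SDs of 5.44 and 3.67. The difference in share between the libraries was therefore not resolved at this depth.

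Pax3, the relative of Pax7 that marks muscle precursors of the embryo and a subset of adult satellite cells in mouse, was at the limit of detection. It had 2 reads in replicate 1 and 1 read in replicate 2, or 0.02 and 0.01 TPM. The second tables assigned it 8.10 and 3.02 reads. It had too few reads to be tested. In the first tables every read went to Pax3-203, a non-coding transcript with a last exon of 2321 bases (chr1:78183456-78185776), and the coding transcripts Pax3-201 and Pax3-202 were listed at 0 TPM. The longest exact run of bases shared by Pax7-201 and Pax3-201 is 26 bases.

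None of the other Pax genes reached a level near that of Pax7. The 7 others had at most 5 reads in a library, and 4 of them, Pax2, Pax4, Pax6 and Pax8, had 0 reads in both libraries of the first tables, which allows up to 3 reads in each. Pax9 had 5 reads in replicate 1 and 2 in replicate 2, Pax5 had 3 and 0, and Pax1 had 0 and 1.

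Among the surface proteins, Sdc4 (chr2:164424247-164443887, minus strand) was the most abundant. It encodes syndecan-4, a proteoglycan that carries heparan sulfate and binds growth factors and matrix. It had 1089 reads in replicate 1 and 1213 in replicate 2, or 15.6 and 17.7 TPM, with a mean of 16.7 ± 1.51 TPM (SD, n = 2), the 83.0th percentile of protein-coding genes. Replicate 2 was higher, by 1.15-fold, with a log2 ratio of 0.20 and an interval of 0.085 to 0.32, and this passed the test (adjusted p = 0.00425, exact binomial test with Benjamini-Hochberg adjustment). The coding transcript Sdc4-201 held 80.4% and 77.9% of the level in replicates 1 and 2, and the non-coding Sdc4-202 held the rest.

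The other syndecans were lower than Sdc4 in both libraries. Sdc3, also known from satellite cells, had levels of 3.32 and 3.96 TPM in replicates 1 and 2 and was higher in replicate 2, with 420 and 498 reads (log2 ratio 0.29, adjusted p = 0.0108, exact binomial test). Sdc2 was at 2.90 and 2.39 TPM and Sdc1 at 0.76 and 0.75 TPM, and neither passed the test.

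Cdh15 encodes M-cadherin, an adhesion protein at the contact between satellite cell and fibre. It lies on chromosome 8 (chr8:122847966-122867397, plus strand) and has 1 annotated transcript. It had 966 reads in replicate 1 and 854 in replicate 2, or 8.92 and 7.88 TPM, with a mean of 8.40 ± 0.735 TPM (SD, n = 2). Replicate 1 held more reads, and the difference did not pass the test (log2 ratio -0.13, interval -0.26 to 0.0051, adjusted p = 0.164, exact binomial test). The annotated gene Gm20388 spans Cdh15 on the same strand, and it had 316 reads in replicate 1 and 215 in replicate 2 in the first tables.

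Among the cadherins of the family list, Cdh15 stood below Cdh13 and Cdh5 and above Cdh2 and Cdh11 in both libraries. Cdh13, or T-cadherin, was at 34.6 and 36.3 TPM in replicates 1 and 2, and Cdh5, the cadherin of endothelial cells, at 14.3 and 15.7 TPM. Cdh5 was higher in replicate 2 (log2 ratio 0.25, adjusted p = 4.67e-07, exact binomial test). Cdh2, or N-cadherin, which mouse satellite cells also carry, had 17 reads in replicate 1 and 65 in replicate 2 and was higher in replicate 2 by 3.87-fold (log2 ratio 1.95, adjusted p = 2.88e-07, exact binomial test). Cdh11 was at 0.39 and 0.30 TPM.

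Vcam1 encodes a cell adhesion molecule by which mouse satellite cells are often sorted (chr3:116109949-116129688, minus strand). It had 74 reads in replicate 1 and 82 in replicate 2. In the first tables the levels ran the other way, at 0.86 and 0.76 TPM, with a mean of 0.810 ± 0.0707 TPM (SD, n = 2), while in the second tables they ran with the reads, at 1.19 and 1.295 TPM. Vcam1-201 led in both libraries and both kinds of table, with 61.6% and 73.7% of the level in the first tables and 70.0% and 58.9% in the second. The share of the short transcript Vcam1-202, of 749 bases, was higher in replicate 1 of the first tables, at 30.2% and 5.26%, and higher in replicate 2 of the second, at 14.1% and 22.2%. The first tables gave it 5.81 and 0.89 reads, with posterior SDs of 3.39 and 2.51, so its share was not resolved at this depth. The log2 ratio of the counts was 0.20 with an interval of -0.27 to 0.67, and the difference did not pass the test (adjusted p = 0.646, exact binomial test). The antisense gene Gm43109 had 0 reads in both libraries.

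Vcam1 binds integrins of the alpha-4 and alpha-9 kind. Itgb1, the shared beta chain, was at 65.2 and 58.8 TPM in replicates 1 and 2. Itga4 had 1.34 and 1.13 TPM and was higher in replicate 1 (366 and 263 reads, log2 ratio -0.43, adjusted p = 0.00152, exact binomial test). Itga9 had 1.18 and 1.17 TPM, with 281 and 247 reads. Itgb7 had nearly equal levels, 0.48 and 0.47 TPM, but its reads differed, at 29 and 14 (log2 ratio -0.98, interval -2.04 to -0.035). Neither passed the test (adjusted p = 0.497 for Itga9 and 0.105 for Itgb7, exact binomial test).

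Calcr, the calcitonin receptor, was near the lower limit of the counts (chr6:3685680-3764714, minus strand). It had 14 reads in replicate 1 and 11 in replicate 2, or 0.12 and 0.09 TPM, and the second tables gave 17 and 12 reads. The counting interval of the log2 ratio, -1.58 to 0.95, was the widest of the 9 genes tested, and the difference did not pass the test (adjusted p = 0.843, exact binomial test).

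The transcripts of Calcr differ in a coding exon of 111 bases, or 37 codons (exon 10 of Calcr-201, chr6:3707489-3707599), which in rodents adds an insert to an extracellular part of the receptor. Calcr-201 and Calcr-204 contain the exon, and Calcr-202 skips it. The stretch is shown with the exon in capitals between the ends of its neighbours (chr6:3708486-3708500 and chr6:3700266-3700280), followed by the junction without it.
Calcr-201: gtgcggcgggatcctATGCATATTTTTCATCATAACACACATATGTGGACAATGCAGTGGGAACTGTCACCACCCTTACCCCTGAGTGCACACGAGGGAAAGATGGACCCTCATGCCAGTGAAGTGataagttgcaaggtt
Calcr-202: gtgcggcgggatcctataagttgcaaggtt

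In the first tables Calcr-202 held 83.3% of the level in replicate 1 and 88.9% in replicate 2, and both transcripts with the exon were listed at 0 TPM in both libraries. The second tables gave Calcr-201 and Calcr-204 5.08 and 2.05 reads in replicate 1 and about 0 in replicate 2. With 11 to 17 reads per library, the posterior SD of the Calcr-202 count, 2.93 reads in replicate 1 and 2.49 in replicate 2, was close to its posterior mean of 3.40 and 3.02, so the split between transcripts was not resolved at this depth.

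The related receptor and its accessory proteins were more abundant than Calcr itself. Calcrl, the related receptor that serves adrenomedullin and the calcitonin gene-related peptide in vessels, was at 4.26 and 3.55 TPM in replicates 1 and 2. Of the accessory proteins, Ramp2 was at 13.6 and 13.0 TPM, Ramp1 at 7.43 and 8.36 TPM and Ramp3 at 0.18 and 0.36 TPM. Ramp1 was higher in replicate 2 (547 and 623 reads, log2 ratio 0.24, adjusted p = 0.0239, exact binomial test). The peptide genes Calca and Calcb had 0 reads in both libraries.

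Calcr also hosts Mir489, a microRNA gene known for keeping mouse satellite cells at rest, and Mir653. Both precursors were listed at 0 reads in both libraries and both kinds of table; a count of 0 allows up to 3 reads, and the mature RNA itself was not measured. The mature miR-489-3p lies at chr6:3721922-3721944 on the minus strand (RefSeq, GRCm38.p6) and is shown for its seed, bases 2 to 8, in capitals.
miR-489-3p: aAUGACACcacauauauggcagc

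Chrdl2 encodes a secreted chordin-like protein that binds bone morphogenetic proteins (chr7:100006172-100034728, plus strand). It had 39 reads in replicate 1 and 31 in replicate 2. Its levels in the first tables were nearly equal, at 0.77 and 0.75 TPM, with a mean of 0.760 ± 0.0141 TPM (SD, n = 2). Of the level in replicate 2, 0.21 TPM came from 4.57 reads given to Chrdl2-203, a transcript of 741 bases. The second tables gave 1.22 and 1.09 TPM in replicates 1 and 2. The difference in counts did not pass the test (log2 ratio -0.28, interval -1.01 to 0.44, adjusted p = 0.689, exact binomial test). Its relatives stood at similar levels: Chrd was at 1.41 and 1.26 TPM and Chrdl1 at 0.52 and 0.58 TPM, and neither passed the test.

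Chrdl2 was the only one of the 10 genes whose leading transcript by TPM differed between libraries or tables. In the first tables Chrdl2-201 held 92.2% of the level in replicate 1 and 0% in replicate 2, where Chrdl2-202 held 68.0% and Chrdl2-203 held 28.0%. In the second tables Chrdl2-201 led in both libraries, with 80.4% and 98.3%. In replicate 2 the posterior mean counts were 10.8 reads for Chrdl2-201 and 12.8 for Chrdl2-202, with posterior SDs of 7.19 and 7.57, so neither transcript stood apart from the other.

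Chrdl2-201 and Chrdl2-202 begin with different first exons and join the same second exon. The coding ends of both first exons are shown in capitals (chr7:100006603-100006647 and chr7:100010075-100010119), followed in lower case by the shared start of exon 2 (chr7:100016978-100016992). At this end, only reads that touch a first exon tell these transcripts apart.
Chrdl2-201: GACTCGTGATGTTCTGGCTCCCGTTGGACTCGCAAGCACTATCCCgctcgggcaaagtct
Chrdl2-202: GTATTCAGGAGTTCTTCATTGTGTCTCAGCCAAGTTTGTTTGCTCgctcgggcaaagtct

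**Figure D2:**
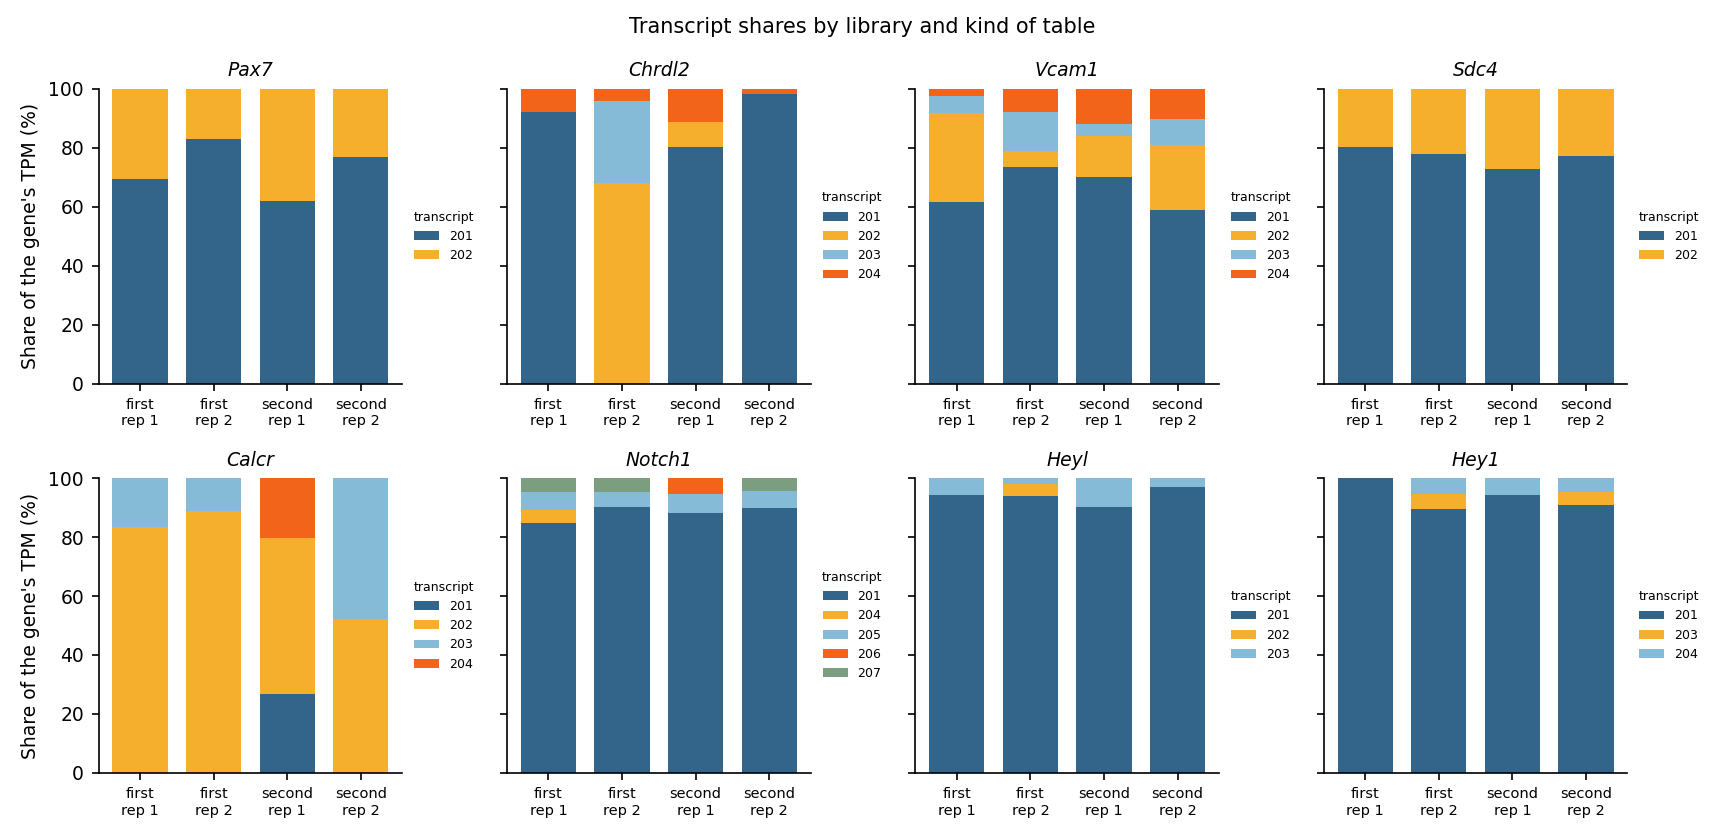
Share of each gene's TPM held by its transcripts, in percent, for 8 genes with several transcripts, in the first and second tables of each library; each colour is a transcript by its number. The leading colour is the same in all 4 bars of every gene shown except Chrdl2, where Chrdl2-202 leads in replicate 2 of the first tables.

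Of the 39 annotated transcripts of the 10 genes, 26 had reads in the first tables. Leaving Chrdl2 aside, the leading transcript by TPM was the same in both libraries and both kinds of table for the 9 others. For 8 of these it was protein coding, Pax3 being the exception. Cdh15 has 1 annotated transcript, so its leader could not differ, and the leaders of Pax3 and Calcr rested on few reads. By posterior mean count, Calcr-201, at 3.77 reads, stood above Calcr-202, at 3.40 reads, in replicate 1. The posterior SD of the gene count was 0 for all 10 genes in both libraries, so none of their reads was divided with another gene in the first tables.

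Notch1, the receptor, lies on chromosome 2 (chr2:26457903-26516663, minus strand). It had 768 reads in replicate 1 and 790 in replicate 2, or 2.71 and 2.64 TPM, with a mean of 2.68 ± 0.0495 TPM (SD, n = 2). Its counts had a log2 ratio of 0.089 and an interval of -0.056 to 0.23 (adjusted p = 0.433, exact binomial test). The posterior mean TPM was higher, at 4.88 and 4.61 TPM in replicates 1 and 2. The deposited interval of the TPM of Notch1, 3.43 to 6.50 in replicate 1 and 3.30 to 6.14 in replicate 2, did not contain the deposited TPM itself. Notch1 has 11 annotated transcripts, several of them short, and Notch1-202, of 406 bases, had a posterior mean count of 2.15 and 1.93 reads where its expected count was 0. The part of these short transcripts in the interval was not tested. Notch1-201 held 84.9% and 90.2% of the level.

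Heyl and Hey1 encode repressors switched on by Notch, and mice without both lose resting satellite cells. Heyl (chr4:123233556-123249875, plus strand) had 366 reads in replicate 1 and 439 in replicate 2, or 2.52 and 3.05 TPM, with a mean of 2.79 ± 0.375 TPM (SD, n = 2). It was higher in replicate 2 by 1.24-fold (log2 ratio 0.31, interval 0.11 to 0.52, adjusted p = 0.0120, exact binomial test with Benjamini-Hochberg adjustment).

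Hey1 (chr3:8663359-8667256, minus strand) ran the other way. It had 133 reads in replicate 1 and 98 in replicate 2, or 1.67 and 1.32 TPM, with a mean of 1.495 ± 0.247 TPM (SD, n = 2). The difference did not pass the test on the first tables (log2 ratio -0.39, interval -0.78 to -0.0047, adjusted p = 0.127, exact binomial test). On the second tables, with 151 and 96 reads, the log2 ratio was -0.57 and Hey1 was higher in replicate 1 (adjusted p = 0.0115, exact binomial test). Hey2, the remaining member of the family, had 17 and 21 reads, or 0.20 and 0.25 TPM. The longest exact run shared by Hey1-201 and Heyl-201 is 17 bases.

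Across the 10 genes, 9 had at least 20 reads over both libraries and were tested. Of these, 2 were called different, Sdc4 and Heyl, both higher in replicate 2. Among all 14827 genes tested, 26.1% were called in either direction, 14.4% as higher in replicate 2 and 11.7% as higher in replicate 1, so the share of 2 of 9 (22.2%) was near the background. The median log2 ratio of the 9 genes was 0.089, against 0.0012 for all genes tested. None of the 9 differed by 1.5-fold or more, and each lay within the central 95% of all genes with a similar number of reads, which was -1.32 to 1.31 from 20 to under 200 reads, -0.56 to 0.70 from 200 to under 2000 reads and -0.40 to 0.81 from 2000 reads. These tests cover counting error in these 2 libraries only.

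**Figure D3:**
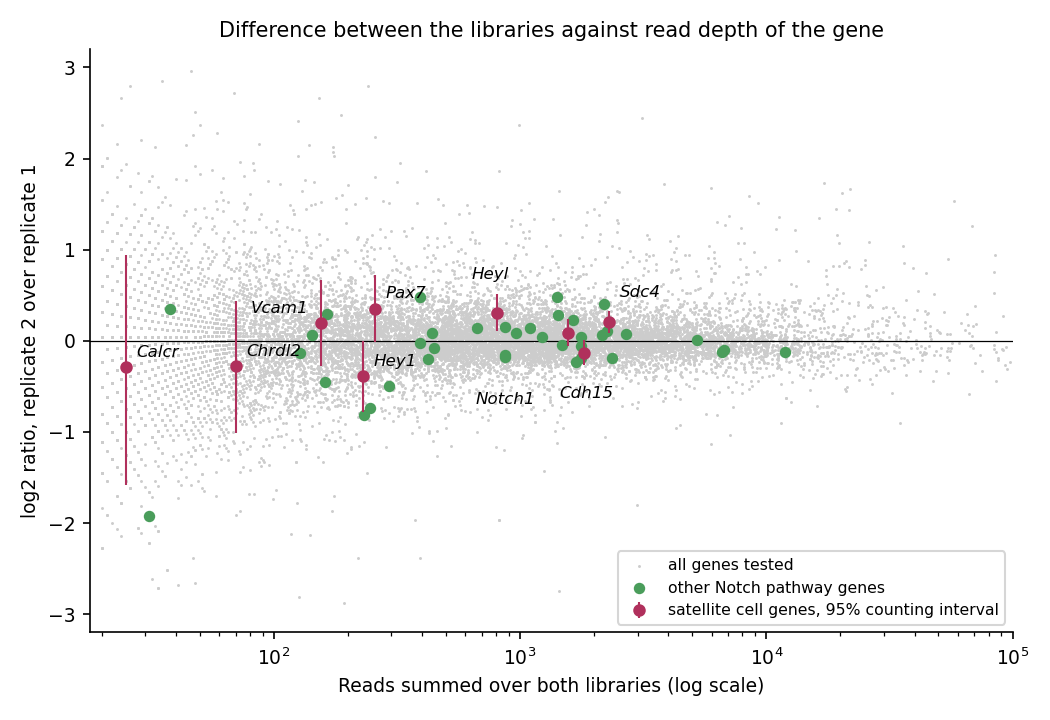
The log2 ratio of replicate 2 over replicate 1 against the reads summed over both libraries (log axis), for all genes tested (grey), 38 other Notch pathway genes (green) and the 9 satellite cell genes tested (red, with 95% counting intervals); 103 grey genes lie outside the axes. The red points lie within the grey cloud, and the intervals of Sdc4 and Heyl lie above 0.

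Besides Notch1, Heyl and Hey1, 41 further Notch pathway genes were listed, and 31 of them reached 1 TPM in both libraries. Of the 38 tested, 15 (39.5%) were called different, 5 as higher in replicate 2 and 10 as higher in replicate 1, and their median log2 ratio was -0.0069. With library sizes scaled to the ERCC RNAs the split was 6 and 6. The share of all genes called depended on depth, at 10.3% for genes with 20 to under 200 reads, 23.1% from 200 to under 2000 reads and 53.3% from 2000 reads.

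Among the ligands, Jag2 was the most abundant, at 7.95 and 6.87 TPM in replicates 1 and 2. Its reads ran the other way, 767 and 870, and by counts it was higher in replicate 2 (log2 ratio 0.23, adjusted p = 0.00700, exact binomial test). Jag1 was at 2.63 and 2.13 TPM and Dll4, a ligand of endothelial cells, at 1.87 and 1.72 TPM, and neither passed the test. Dll1, a ligand for satellite cells in mouse muscle, had 150 reads in replicate 1 and 82 in replicate 2 and was higher in replicate 1 by 1.76-fold (log2 ratio -0.82, adjusted p = 0.000185, exact binomial test).

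All 4 receptors were detected at similar levels. Notch3, the receptor of mural cells and also of satellite cells, was at 4.21 and 4.23 TPM in replicates 1 and 2, Notch4, known from endothelium, at 4.13 and 3.48 TPM and Notch2 at 3.40 and 2.94 TPM. By the TPM of the first tables, Notch1 was the lowest of the receptors in both libraries. In replicate 2 of the second tables Notch2, at 3.07 TPM, was below Notch1, at 3.47 TPM. The posterior mean TPM of Notch1 was higher than its TPM, at 4.88 and 4.61 in replicates 1 and 2. Posterior means of the other receptors were not compared, so the rank of Notch1 is not settled. Of the 4, only Notch2 passed the test, as higher in replicate 1 (926 and 760 reads, log2 ratio -0.24, adjusted p = 0.00473, exact binomial test). The share called was 25.0%, against 26.1% of all genes tested.

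The 16 genes that process ligands and receptors were mostly above the receptors themselves, with 15 of 16 at 1 TPM or more. Neurl1a, a ubiquitin ligase that acts on ligands, was at 52.2 and 46.4 TPM in replicates 1 and 2, Psenen, a subunit of gamma-secretase, at 48.2 and 40.8 TPM and Furin, the protease that matures the receptors, at 19.2 and 18.4 TPM. In the list, 2 genes were higher in replicate 2, 3 were higher in replicate 1 and 11 did not pass the test. The share called was 31.25%, against 26.1% of all genes tested. By depth, the share of all genes was 10.3% under 200 reads, 23.1% from 200 to under 2000 reads and 53.3% from 2000 reads.

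In the nucleus, Rbpj, the DNA-binding partner of activated Notch, was at 8.50 and 7.18 TPM in replicates 1 and 2 and was higher in replicate 1 (1276 and 1083 reads, log2 ratio -0.19, adjusted p = 0.00884, exact binomial test). The co-factors Snw1 and Ep300 were at 18.2 and 18.4 TPM and at 14.8 and 14.8 TPM.

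Among the targets, Hes1 stood above Heyl, at 3.73 and 5.56 TPM in replicates 1 and 2. It was higher in replicate 2, as Heyl was (167 and 226 reads, log2 ratio 0.48, adjusted p = 0.00561, exact binomial test). Nrarp, a Notch target that feeds back on the pathway, was higher in replicate 1 (174 and 119 reads, log2 ratio -0.50, adjusted p = 0.0163, exact binomial test). Hes6 was at 1.73 and 2.06 TPM. Besides Heyl and Hey1, 4 targets were tested, of which 1 was higher in replicate 2, 1 was higher in replicate 1 and 2 did not pass the test. The share called among these 4 was 50.0%, against 26.1% of all genes tested. Hes5 and Hes7, which like Nrarp were named after their values were seen, had 0 reads in both libraries of the first tables.

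The inhibitors of the pathway did not share a direction. Itch and Numb were at 7.87 and 6.59 TPM in replicate 1 and at 7.55 and 6.41 TPM in replicate 2. Fbxw7, which marks the activated receptor for breakdown, was higher in replicate 2 (603 and 811 reads, log2 ratio 0.48, adjusted p = 9.47e-09, exact binomial test). Numbl was higher in replicate 1 by 1.66-fold (155 and 90 reads, adjusted p = 0.000791, exact binomial test), and so was Dlk1, a ligand-like protein, by 3.80-fold (25 and 6 reads, adjusted p = 0.00513, exact binomial test).

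**Figure D4:**
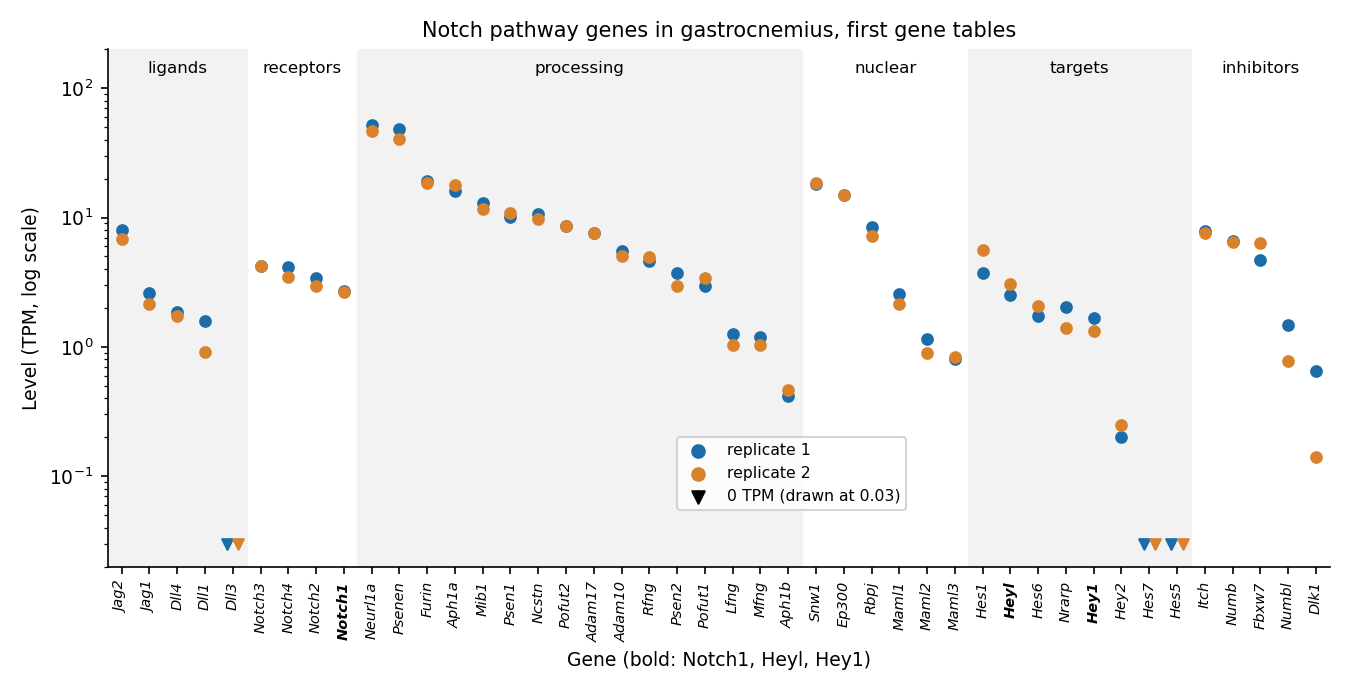
Level in TPM (log axis) of 44 Notch pathway genes in replicate 1 (blue) and replicate 2 (orange) of the first gene tables, by role, with Notch1, Heyl and Hey1 in bold; triangles mark genes listed at 0 TPM. The 4 receptors lie between 2.64 and 4.23 TPM, and the processing genes reach 52.2 TPM.

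Of 16 further genes known from satellite cells, 10 reached 1 TPM in both libraries, 4 were higher in replicate 2, 3 were higher in replicate 1 and 9 did not pass the test. The share called was 43.8%, against 26.1% of all genes, or 10.3% under 200 reads, 23.1% from 200 to under 2000 reads and 53.3% from 2000 reads. The most abundant were Asb5 at 114 and 92.3 TPM in replicates 1 and 2, Cav1 at 32.5 and 33.0 TPM, which endothelial cells also carry, and Itga7 at 22.9 and 20.3 TPM, which fibres also carry. Which cells of the whole muscle gave these reads, those of Asb5 included, was not tested. The transcription factor Barx2 was higher in replicate 2 by 2.04-fold (344 and 680 reads, adjusted p = 3.25e-27, exact binomial test). Met, the receptor of hepatocyte growth factor, was higher there by 1.53-fold (537 and 797 reads, adjusted p = 1.67e-13, exact binomial test).

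All 10 genes of a list on quiescence reached 1 TPM in both libraries, 1 was higher in replicate 2, 4 were higher in replicate 1 and 5 did not pass the test. The genes of this list had over 200 reads each, and their share called, 50.0%, lay between the 23.1% and 53.3% of all genes in the upper classes of reads. Nfia was at 22.4 and 21.8 TPM in replicates 1 and 2, the cell cycle inhibitor Cdkn1b at 16.4 and 16.5 TPM and Foxo3 at 10.1 and 10.6 TPM. Col5a1, a chain of collagen V, which acts on Calcr in mouse satellite cells, was higher in replicate 1 by 1.62-fold (1777 and 1063 reads, adjusted p = 1.25e-34, exact binomial test).

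Genes of activation and division were mostly at the limit of detection. Myod1 had 505 and 472 reads in replicates 1 and 2 and Myog 218 and 210 reads, and neither passed the test. In whole muscle, reads of both genes from satellite cells and from other cells cannot be told apart. The other 7 genes of that list had at most 13 reads in a library and were not tested. Mki67, a marker of dividing cells, had 2 reads in replicate 1 and 13 in replicate 2.

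Markers of other cell types also differed between the libraries, and they stand beside the differences in Sdc4, Heyl and the Notch genes. Endothelial markers summed to 187 and 199.5 TPM in replicates 1 and 2, with 6 of 10 higher in replicate 2 and 1 higher in replicate 1. Mural markers summed to 1037 and 988 TPM, with 2 higher in replicate 2 and 4 higher in replicate 1 of 10. Most of both mural sums came from Des, with 862 and 830 TPM, respectively, which did not pass the test. Which cells gave the Des reads was not tested, so the mural sums are not a measure of mural cells alone. Fibro-adipogenic markers summed to 556 and 391 TPM, with 7 of 10 higher in replicate 1 and 1 higher in replicate 2. Gsn alone was at 265 and 137 TPM in replicates 1 and 2, and the gene higher in replicate 2 was Col1a1, at 60.6 and 88.0 TPM. Tendon markers summed to 58.2 and 96.5 TPM, and 8 of 8 were higher in replicate 2. Macrophage markers summed to 31.5 and 26.1 TPM, with 2 of 10 higher in replicate 1, and Schwann cell markers to 34.7 and 29.2 TPM, with 0 of 7 tested called (1 at an unadjusted p under 0.05, exact binomial test). Of the muscle fibre markers 10 of 10 were called, 4 as higher in replicate 2 and 6 as higher in replicate 1. Each had over 2000 reads, and Acta1 was called at 1.07-fold. Beside the counts called in all these lists, the share over all genes tested was 26.1%. By depth it was 10.3% under 200 reads, 23.1% from 200 to under 2000 reads and 53.3% from 2000 reads. The slow-fibre genes Myh7 and Tnnt1 were higher in replicate 2 by 2.53-fold and 2.55-fold, and Myh2 by 2.03-fold, while Myh4, of the fastest fibres, was higher in replicate 1 by 1.29-fold. No marker of these lists was at 0 in both libraries. Their part in the differences of the satellite cell and Notch genes was not tested.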

How the data were processed

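The gene and transcript tables deposited by the authors hold expected counts (estimated reads), TPM, and, per the file headers, posterior means and SDs of the counts and bounds of TPM, which are deposited scores of the authors. In the deposited second tables each transcript has an estimated count and a TPM. The notes deposited with each sample name the mm10 assembly and GENCODE annotation M21. The programs, and any use of strand in counting, remain not given in the sources used here; reads of the CAST alleles were counted on this reference too.

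Entries that are not genes (ERCC RNAs, 0.468% and 0.442% of counts, and numeric entries, 6 and 3 reads) were left out of tests. Counts were rounded, scaled by TMM factors (edgeR 4.0.16, R 4.3.3) and tested, from a summed count of 20, with a two-sided exact binomial test conditional on the summed count, with Benjamini-Hochberg adjustment over all genes; called means an adjusted p under 0.05. Log2 ratios are replicate 2 over replicate 1 with 0.5 added to each scaled count. Intervals are exact Clopper-Pearson intervals at 95% and, like the 3 reads that a count of 0 allows, cover counting error only. The libraries differed by more than counting noise (chi-square per degree of freedom 71.6), so they were not treated as 1 library deposited more than once; this does not tell separate animals from separate preparations. Sequences come from GENCODE M21 transcripts and RefSeq (GRCm38.p6).

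The members and lists were chosen with earlier results of these data known. Named genes are all members, up to 3 of the highest mean TPM in each list, list genes called with a fold of at least 1.5, and relatives in family lists. Itgb7, Myh4, Nrarp, Hes5 and Hes7 were named outside these rules. No gene was named for a pattern like that of a member, since 1 group gives none.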

Additional observations from a re-analysis of the deposited data

How the results depend on the processing

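The number of genes at 1 TPM or more in both libraries, 5 in the first tables, was 8 with the second tables, 8 with TPM rescaled to protein-coding genes and 8 at a threshold of 0.5 TPM; it was 4 at 2 TPM and stayed 5 with the posterior mean TPM. The level of Notch1 was 4.75 TPM by the posterior mean, against 2.68 TPM. The median level of the 10 genes was 1.15 TPM, against 1.71 TPM in the second tables and 2.46 TPM after rescaling to protein-coding genes. The median share of the leading transcript was 86.8%, and 89.2% in the second tables. Without either replicate in turn, the median share ran from 88.5% to 89.1%, the median level from 1.07 to 1.27 TPM, and the number at 1 TPM stayed 5. No test is left with 1 library.

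Sdc4 and Heyl were called under all 7 alternatives of scaling, filter and table, and Hey1 only in the second tables. The median log2 ratio ran from -0.020, where Pax3 enters at a summed count of 1, to 0.15. The Notch count ran from 12 to 15. The share of all called genes that were higher in replicate 2 was 55.2%, and 69.4% with ERCC scaling, 49.8% with median-of-ratios scaling and 46.1% with total counts. No paired analysis was possible because there is 1 group. Depth limits Pax3, Calcr and Chrdl2 most.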

Other observations

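Some counts near the members depended on the kind of table. Gm20388, the annotated gene that spans Cdh15, had 316 reads in replicate 1 and 215 in replicate 2 of the first tables, and 25.1 and 471 reads in the second, so that the order of the libraries reversed. Hes7 had 0 reads in both libraries of the first tables and 9.04 and 10.3 reads in the second. Pax6 had 0 reads in the first and 5.38 and 8.06 reads in the second. Itga4, an integrin chain that binds Vcam1, had 366 and 263 reads in the first and 524 and 393 in the second. The cause was not tested.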
